A study of Homo sapiens with 19 samples.

Results

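Of 33382 genes quantified by RNA-seq in human embryonic stem cells (hESCs), 187 were high for a short window after EED was switched off. They were chosen from the 7 samples of H1-EED-/-/EED-OE cells, with TPM (a transcript level normalised for length and for the total of the sample) plus 1 as the measure. At the larger of day 16 and day 20 after doxycycline (DOX) withdrawal, each gene was at least 3 times as high as in each of 4 other samples, those with DOX and at days 8, 24 and 28, and its TPM plus 1 was at least 6. A TPM plus 1 of at least 6 at day 16 or day 20 was found for 12142 genes, so the 187 were 1.54% of these. The high level in this window is therefore what picked the genes and is described here without a test. The rule did not use day 12 or the 12 samples of the other 6 lines, but the genes were chosen with earlier results of these data known.

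All samples came from H1, an established hESC line grown in mTeSR1 medium on matrigel. H1-EED-/-/EED-OE cells lack a functional endogenous EED and carry a lentiviral EED that is expressed while DOX is present. They were sampled once with DOX and once at days 8, 12, 16, 20, 24 and 28 after its removal, so no time point has a replicate, and the title of the sample with DOX also carries a day 28 tag. The 6 lines, with 2 untreated samples each, were WT H1 cells and knockouts of a single PRC2 gene (EED-/-, SUZ12-/-, EZH1-/- or EZH2-/-) or of both enzymes (EZH2-/-/EZH1-/-). The knockouts were homozygous deletions of a functional domain made with CRISPR/Cas9 and homologous recombination. The samples of a knockout line carried different clone or passage names, and the WT H1 samples were told apart by a number alone, so that p-values measure the spread between these samples, which may in part be technical. EED, SUZ12 and the EZH enzymes form Polycomb repressive complex 2 (PRC2), which deposits the repressive histone mark H3K27me3. The study describes the mark as lost from EED-/-, SUZ12-/- and EZH2-/-/EZH1-/- cells, and as reduced but present where a single EZH enzyme was deleted. The former are called here the 3 PRC2-null lines.

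The primitive streak is the structure of the early embryo through which epiblast cells pass to become mesoderm and definitive endoderm. NODAL, WNT and FGF ligands induce it, and LEFTY proteins are secreted inhibitors of NODAL that NODAL signalling itself switches on. T (Brachyury) and MIXL1 are transcription factors of the streak, and MESP1, MSGN1 and TBX6 act in the mesoderm that leaves it. Many genes of this programme are covered by H3K27me3 in pluripotent cells.

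The genes were not split evenly over the window. The higher of the 2 values was at day 16 for 45 genes and at day 20 for 142 (75.9%). At day 20, 103 genes were at least 3 times as high as at day 16, and 20 genes were at least 3 times as high at day 16 as at day 20. The other 64 differed by less than 3 times between these days, and 20 genes met the ratio at both. The TPM at the peak ran from 5.03 to 2682.53 with a median of 26.14. The ratio of the peak to the highest of the 4 other samples had a median of 4.12 and was at least 10 for 15 genes. At the edge of the rule, ADRA2C, MFAP3L and TBC1D2 lay just inside with ratios of 3.012, 3.011 and 3.006, and AP001065.15, the noncoding ENSG00000255367 and INPP4A lay just outside with 2.973, 2.968 and 2.947. In GENCODE release 44, 145 were protein-coding genes, 37 were long noncoding RNAs, 2 were transcribed pseudogenes and 3 had no entry.

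**Figure D1:**
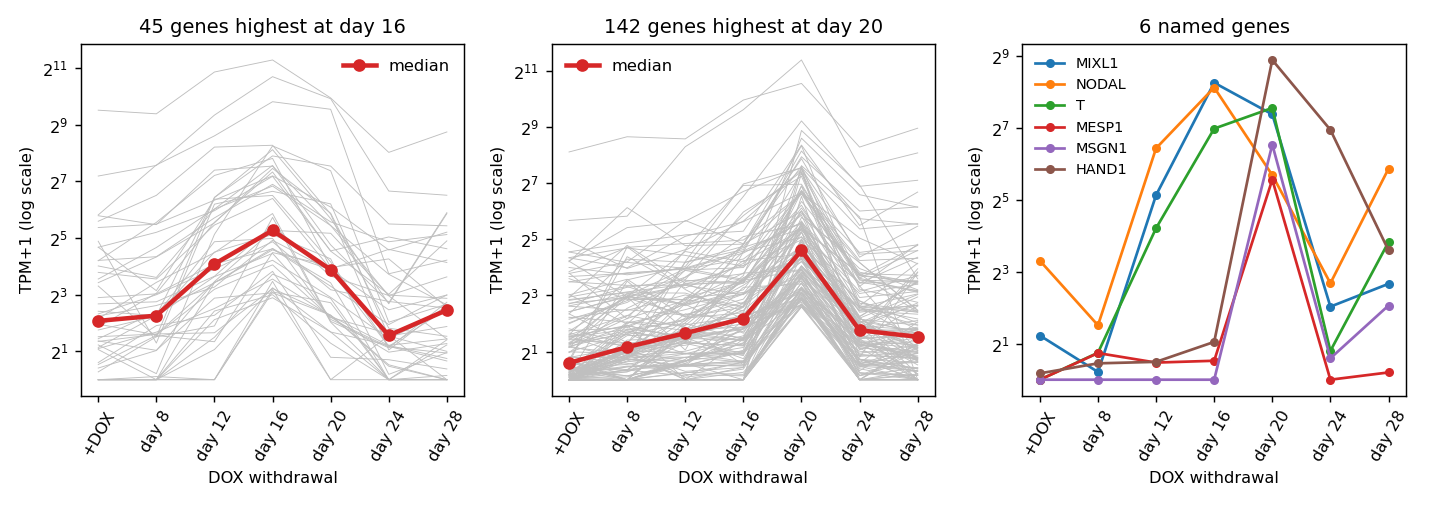
TPM plus 1 on a log scale in the 7 samples of H1-EED-/-/EED-OE cells, with 1 grey line per gene and the median in red for the 45 genes highest at day 16 (left) and the 142 highest at day 20 (middle), and 6 named genes on the right. The genes of the left panel were already higher at day 12, with a median TPM of 15.93 against 3.21 with DOX, while the middle panel stayed at a median of 3.52 at day 16 and reached 23.3 at day 20.

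Many genes of a primitive streak list were among the transient genes. Of 29 measured genes in a list of primitive streak and nascent mesoderm genes, 20 (69%) met the rule: T, MIXL1, MESP1, MESP2, MSGN1, TBX6, LHX1, CDX1, SP5, NODAL, LEFTY1, LEFTY2, FGF4, FGF8, FGF17, WNT3, WNT3A, WNT8A, DLL3 and APLNR. Among the 12142 genes with a comparable level at day 16 or 20 the share was 1.54%. The list was put together with earlier results of these data known and is no independent evidence, so nothing is read from the difference. The other 9 were EOMES, GSC, EVX1, CER1, FOXH1, NKX1-2, PDGFRA, KDR and SNAI1. Several of them were also high at day 16 or 20 but kept a higher level at day 24 or day 28. EOMES, a T-box factor of streak and endoderm, had a TPM of 115.27 at day 16 and 96.57 at day 20, and 43.43 at day 28. CER1, a secreted inhibitor of NODAL, BMP and WNT, had 441.59 and 357.52 at days 16 and 20 and still 247.96 at day 28.

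The promoters of 2 of these genes, SP5 and MIXL1, each matched 2 of the short motifs searched and are shown for that reason together with MESP2. RefSeq promoter windows on GRCh38.p14, from 250 bases before to 50 bases after the transcription start, were found by symbol for 104 of the 187 genes. Only 10 of the streak genes that met the rule had a window. The letters searched on both strands were ATCAAAG, a core bound by TCF/LEF factors of the WNT pathway, ATCCACA, a core of the NODAL effector FOXH1, GGTGTGA, a T-box core, and TATAAA, the TATA box. Matches to the TCF/LEF letters were present in 5 of the 104 windows (4.81%) and in 2.64% of 27305 windows of all genes. The FOXH1 letters were in 5 of the 104 (4.81%) and in 2.74% of all windows, the T-box letters in 3 (2.88%) and in 3.43%, and the TATA box letters in 13 (12.5%) and in 12%. MIXL1 and SP5 held both the TCF/LEF and the FOXH1 letters. The share of all windows that hold both was not computed, so nothing is read from this. A match is a description of these letters and does not show that a factor binds. In the sequences below, given 5′ to 3′ on the strand of the gene, the capitals mark the matched TCF/LEF, FOXH1 and T-box letters on either strand.
MIXL1, chr1:226223414-226223713, plus strand: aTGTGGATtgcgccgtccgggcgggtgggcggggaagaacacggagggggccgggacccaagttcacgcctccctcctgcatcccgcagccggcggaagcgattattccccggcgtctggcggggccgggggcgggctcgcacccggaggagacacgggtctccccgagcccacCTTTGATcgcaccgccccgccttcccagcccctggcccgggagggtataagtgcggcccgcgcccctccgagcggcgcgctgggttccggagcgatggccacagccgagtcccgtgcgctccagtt
SP5, chr2:170715087-170715386, plus strand: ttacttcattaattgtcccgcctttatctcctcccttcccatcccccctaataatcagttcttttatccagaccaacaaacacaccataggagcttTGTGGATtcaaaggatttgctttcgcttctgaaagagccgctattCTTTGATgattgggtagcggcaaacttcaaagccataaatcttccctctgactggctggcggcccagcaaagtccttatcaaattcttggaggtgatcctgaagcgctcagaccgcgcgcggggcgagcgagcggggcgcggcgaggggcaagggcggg
MESP2, chr15:89776082-89776381, plus strand: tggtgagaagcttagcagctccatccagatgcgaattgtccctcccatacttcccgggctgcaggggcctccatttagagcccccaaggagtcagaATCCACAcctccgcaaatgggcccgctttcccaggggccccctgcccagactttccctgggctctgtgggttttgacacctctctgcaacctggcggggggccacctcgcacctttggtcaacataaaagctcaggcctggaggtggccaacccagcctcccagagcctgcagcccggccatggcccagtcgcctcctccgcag
The median window of the 104 genes had a GC content of 62% and 17 CpG dinucleotides, and the median of all 27305 windows 58.3% and 14. MIXL1 had 37 CpG in its window, SP5 17 and MESP2 9, and MSGN1 had 3.

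Among the transcription factors, MIXL1 had the highest ratio of all 187 genes, 47.98. MIXL1 (chr1:226223618-226227060, GRCh38) had a TPM of 1.34 with DOX, 0.16 at day 8, 33.91 at day 12, 302.7 at day 16, 164.23 at day 20, 3.08 at day 24 and 5.33 at day 28. T (chr6:166157656-166168700) was listed at 0 with DOX, and had a TPM of 0.68, 17.47, 124.59, 185.95, 0.74 and 13.14 at days 8 to 28. Both genes were thus higher at day 12 than with DOX, high at days 16 and 20 and low at day 24, and T had a higher value again at day 28. SP5, a WNT-responsive zinc finger factor, had a similar course up to day 20 with a TPM of 1.2, 3.79, 85.1, 236.67 and 184.33 from DOX to day 20 but was still at 44.03 and 42.05 at days 24 and 28.

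Factors of nascent mesoderm had their highest values at day 20. MESP1 (chr15:89749875-89751249) had a TPM of 46.06 at day 20 and between 0 and 0.67 in the other 6 samples. MSGN1 (chr2:17816460-17817798) was listed at 0 in the 4 samples with DOX and at days 8 to 16, and had a TPM of 91.44 at day 20, 0.51 at day 24 and 3.17 at day 28. TBX6 had 63.9 at day 20 and between 1.17 and 7.57 in the other samples. These genes did not share the early high values of MIXL1 and T. LHX1, a LIM homeodomain factor of the anterior streak, had 181.68 at day 20 and had a smaller high value of 25.56 at day 8. HAND1, a factor of lateral and extraembryonic mesoderm, had 1.07 at day 16, 469.61 at day 20, 121.6 at day 24 and 11.06 at day 28. CDX1, a caudal-type homeobox factor, had 10.92 at day 16 and 43.89 at day 20 and kept 4.29 and 5.3 afterwards.

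**Figure D2:**
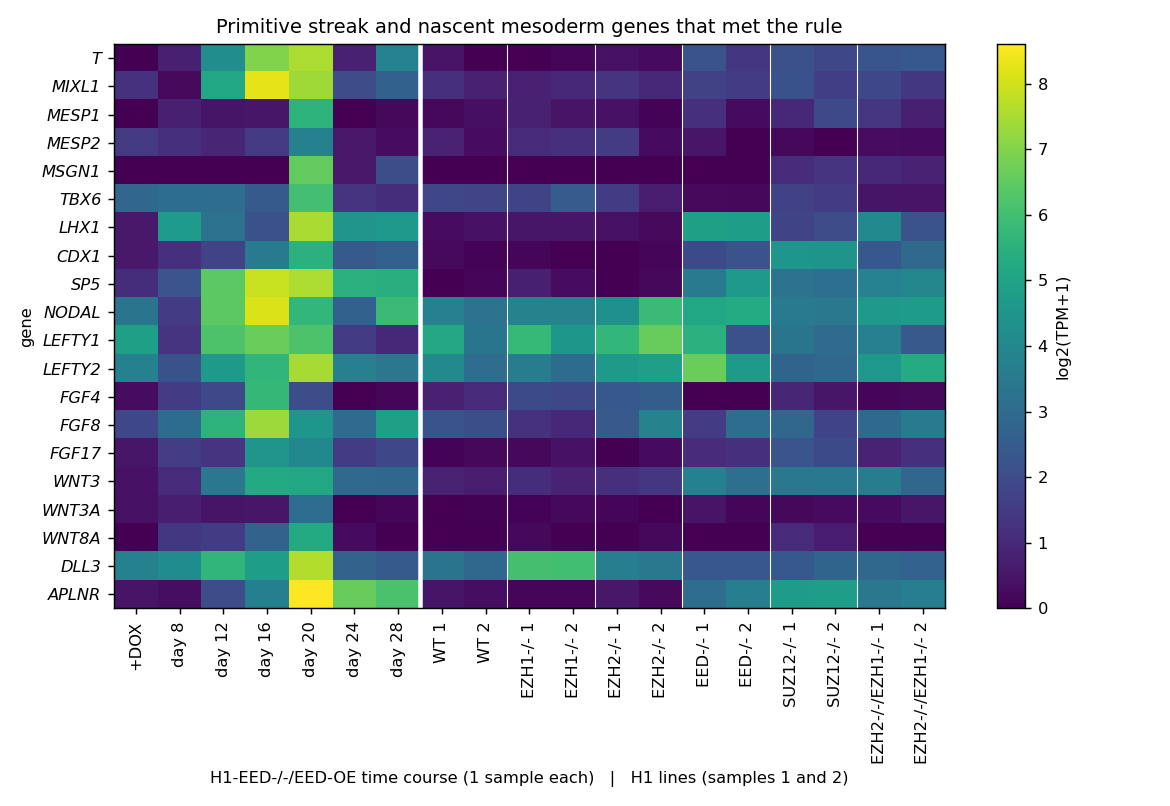
Heat map of log2(TPM+1) for the 20 primitive streak and nascent mesoderm genes that met the rule (rows), in the 7 samples of the time course (left of the thick line) and in the 12 samples of the 6 lines (right). NODAL, FGF8, FGF4 and MIXL1 were highest at day 16, and MESP1, MSGN1 and TBX6 were highest at day 20. Several of the 20 genes were low in all 12 samples of the lines. DLL3 in EZH1-/- H1 cells and LEFTY2 and LHX1 in EED-/- H1 cells were among those that were not.

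Signalling genes had their peak at either day. In a group of 15 ligands, inhibitors and receptors put together after the genes were known, 7 had the higher value at day 16 and 8 at day 20, and in a group of 20 transcription factors 3 and 17 did. NODAL (chr10:70431936-70447951) had a TPM of 8.88 with DOX, 1.85 at day 8, 85.03 at day 12, 275.84 at day 16, 50.3 at day 20, 5.4 at day 24 and 57.02 at day 28. Its inhibitors LEFTY1 and LEFTY2 had 72.03 and 23.46 at day 12, and their peaks were 99.03 at day 16 and 179.05 at day 20. GDF3, a TGF-β family ligand, had 63.86 at day 12 and 187.33 at day 16, and 58.4 at day 28. NODAL and GDF3 were thus both low at day 24 and higher again at day 28. CFC1, the co-receptor Cryptic through which NODAL and GDF family ligands act, had 162.31 at day 20 and at most 5.03 in the other samples.

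The peaks of the FGF and WNT ligands lay on either day. FGF4, an FGF of pluripotent cells and the streak, had a TPM of 51.9 at day 16 and at most 3.08 in the other samples. FGF8 had 45.92 at day 12, 159.56 at day 16 and 22.17 at day 20, and FGF17 had 21.38 and 15.15 at days 16 and 20. WNT3, which is needed to form the streak, had 37.51 and 34.86 at these days. WNT8A and WNT3A, other canonical WNT ligands, had their peak at day 20 with 37.72 and 7.36. WNT5B, a ligand of the noncanonical pathway, had 12.72 at day 16, 106.4 at day 20 and 19.05 at day 28. The NOTCH ligand DLL3 had 50.02 at day 12, 27.62 at day 16 and 194.13 at day 20, and APLNR, the apelin receptor found on early mesoderm, had 12.09 at day 16, 387.87 at day 20 and 95.41 at day 24.

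Pluripotency genes had lower values at day 24 than at day 16. NANOG, a core pluripotency factor, and GDF3 were the 2 genes of 19 in the pluripotency list that met the rule. NANOG (chr12:7787794-7799146) had a TPM of 54.09 with DOX, 43.3 at day 8, 166.91 at day 12, 184.28 at day 16, 42.37 at day 20, 6.77 at day 24 and 1.71 at day 28. The level at days 12 and 16 was thus above that with DOX. The sample with DOX was itself below WT H1 cells, which had 140.42 and 97.47. EZH2-/- sample 1 had 185.35, above the peak of the time course. NANOG thus met the rule relative to a low value with DOX, and a rise above the level of undifferentiated cells is not shown. POU5F1, the pluripotency factor OCT4, had 2916 with DOX, 3356 at day 16, 1579.78 at day 20 and 46.24 at day 24, and SOX2 had 131.44 with DOX, 417.44 at day 8, 165.15 at day 12, 94.35 at day 16, 2.48 at day 20, 2.1 at day 24 and again 35.92 at day 28. Day 20 is therefore the sample in which MESP1, MSGN1 and TBX6 were high with POU5F1 still present and SOX2 low. Cultures were measured in bulk, and fewer cells of a type and less RNA per cell cannot be told apart.

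The genes with the highest TPM encoded secreted peptides and cytoskeletal or lipid-binding proteins. NTS, the precursor of the peptide neurotensin, had 50 with DOX, 55.71 at day 8, 314.15 at day 12, 785.61 at day 16, 2682.53 at day 20, 188.25 at day 24 and 269.49 at day 28. GAL, the precursor of galanin, had 144.35 with DOX, 643.67 at day 12, 1648.54 at day 16 and 961.06 at day 20, and 89.89 at day 28. TUBB2B, a β-tubulin, had 725.98 with DOX, 2480.16 at day 16 and 258.16 at day 24, and FABP5, a fatty acid-binding protein, had 275.73 with DOX and 1501.98 at day 20. A group of 10 neuropeptides and G protein-coupled receptors, also put together after the genes were known, had 8 peaks at day 20. TRH, the precursor of thyrotropin-releasing hormone, had 5.21 at day 16, 118.59 at day 20 and 11.99 at day 24, and GRP, gastrin-releasing peptide, had 1.33, 54.05 and 17.01. TACR1, the receptor of substance P, and GPR83, another receptor of this class, peaked at 11.65 and 30.22 at day 20.

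Matrix genes and metabolic genes made up further groups. Of 10 genes for extracellular matrix and proteases, 9 had the higher value at day 20, among them TNC, the matrix glycoprotein tenascin-C, with a TPM of 23.84 at day 16, 244.98 at day 20 and 63.34 at day 24. COL13A1, a transmembrane collagen, peaked at 96.64 at day 20, and MMP9, a gelatinase, at 43.15. THBS2, a thrombospondin, was the gene of this group with its peak at day 16, with 57.1 then and 3.16 at day 20. Of 12 genes of metabolism and transport, 6 peaked at each day. PDK1, a kinase that restrains pyruvate dehydrogenase, had 112.72 at day 16 and 42.32 at day 20, and CPT1A, which admits fatty acids into mitochondria for oxidation, had 20.92 and 3.61. ATP12A, a proton-potassium pump, had 4.22 at day 16 and 118.56 at day 20. KRT16, a keratin, had 27.39 and 321.61, and PCAT14, a long noncoding RNA, had 91.27 and 594.56, while the noncoding LINC00467 had 61.86 and 150.62.

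Lists for other cell types and pathways were counted in the same way. The 187 genes were 1.54% of those with a comparable level, so in lists of this size nothing is read from a count at or near 0. None of the measured genes in the lists for definitive and visceral endoderm (26 genes), blood and endothelium (31), skeletal muscle (16), nervous system and neural crest (28) and smooth muscle and mesenchyme (21) met the rule. The cardiac and lateral plate list had 2 of 21, HAND1 and RYR2, and the trophoblast and amnion list 1 of 36, HAND1. KRT16 was 1 of 27 epithelial genes, FOSB 1 of 25 stress genes, PDK1 1 of 16 hypoxia genes and OAS1 1 of 27 interferon genes. WNT signalling had 5 of 33, WNT3, WNT3A, WNT5B, WNT8A and SP5, and BMP and TGF-β signalling had 4 of 32, NODAL, LEFTY1, LEFTY2 and GDF3.

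Markers of other cell types differed in summed level across the same samples. The summed TPM of the 26 endoderm genes was 38.36 with DOX, 230.99 at day 16, 5545.2 at day 20 and 20832.58 at day 28. That of the 21 smooth muscle and mesenchyme genes was 1670.46 with DOX, 899.75 at day 16, 4977.14 at day 20 and 27472.41 at day 24. For the 17 pluripotency genes that did not meet the rule it was 7177.3 at day 16, 3166.19 at day 20 and 631.71 at day 24. The part of these shifts in the values of the transient genes was not tested.

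At day 12 part of the genes were already above the level with DOX. The value of TPM plus 1 was at least 3 times that with DOX for 50 of the 187 genes (26.7%), against 409 of the 12142 genes with a comparable level at day 16 or 20 (3.37%). The rule did not use day 12, but it asked for a value with DOX at least 3 times below the peak, which the 12142 genes did not have to meet, so nothing is read from the difference between these shares. Of these 50 genes, 26 were among the 45 that peaked at day 16 and 24 among the 142 that peaked at day 20. For 138 genes the value at day 12 was still at least 3 times below the peak. With 1 sample at each of the time points, these counts carry no replicate error, and a lower bar of 2 times DOX gave 90 genes.

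The 12 samples of the 6 lines, which the rule did not use, mostly lay below the peak. The peak exceeded all 12 samples for 166 of the 187 genes. For 91 (48.7%) the peak TPM plus 1 was at least 3 times the highest of the 12, against 134 of the 12142 genes (1.1%). The peak was chosen by the rule, so nothing is read from the difference between these shares either. For 119 genes the peak was at least 3 times the highest of the 6 samples of the PRC2-null lines. A TPM below 1 in all 12 samples was found for 12 genes, among them WNT3A. In WT H1 cells the genes with a peak at day 16 had a median TPM of 4.815, the mean of 2 samples, and those with a peak at day 20 a median of 0.7875. The latter was 2.0225 in EED-/-, 2.795 in SUZ12-/- and 2.5675 in EZH2-/-/EZH1-/- H1 cells, compared with 23.3 at day 20 of the time course.

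**Figure D3:**
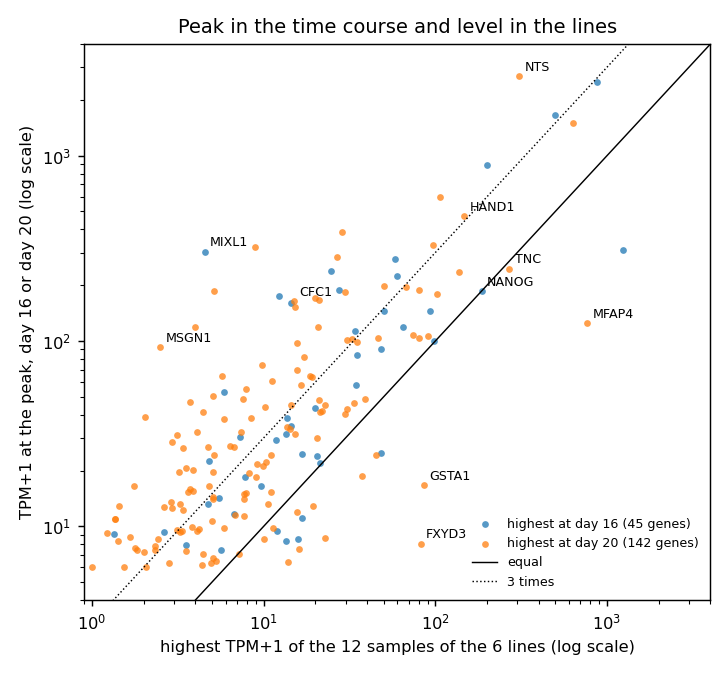
Each point is 1 of the 187 genes, with the highest TPM plus 1 of the 12 samples of the 6 lines on the x axis and the peak TPM plus 1 of the time course on the y axis, both on log scales, coloured by the day of the peak. The 166 genes above the solid line were higher at the peak than in all samples of the lines, 91 lie on or above the dotted line of 3 times, and MFAP4, GSTA1 and FXYD3 lie far below.

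At 14 genes a sample of a PRC2-null line was at or above the peak. MFAP4, a microfibril-associated glycoprotein, had a TPM of 742.23 and 762.06 in SUZ12-/- H1 cells against 123.81 at day 20 of the time course. GSTA1, a glutathione S-transferase, had 84.34 and 77.58 there against 15.68, and FXYD3, a regulator of the sodium pump, 81.15 and 78.9 against 7.08. LAMA2, a laminin chain, had 36.49 and 35.59 against 17.61. These 4 of the 14 were highest in SUZ12-/- H1 cells, and the same genes had lower values in the other PRC2-null lines, with 36.19 and 19.25 for MFAP4 in EED-/- H1 cells. TNC, described below, was another of the 14 and was highest in EED-/- H1 cells.

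The lines themselves were compared by limma on log2(TPM+1), and a gene is called higher or lower when the adjusted p was 0.01 or less and the fold 3 or more. A filter on low values left 19100 genes, among them 169 of the 187, so that 18 were not tested. These 18 include WNT8A, at most 1.04 TPM in the 12 samples, and WNT3A. Of the 169, 44 had their peak at day 16 and 125 at day 20.

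In the PRC2-null lines more of the tested genes were called higher than lower, as over all genes, and the balance differed by the day of the peak. In EED-/- H1 cells 35 of 169 (20.7%) were called higher than in WT H1, against 16.2% of all genes, and 18 (10.7%) lower, against 6.09%. In SUZ12-/- H1 cells 46 (27.2%) were called higher, against 14.5% of all genes, and 11 (6.51%) lower, against 5.21%. In EZH2-/-/EZH1-/- H1 cells the counts were 37 higher (21.9%), against 11.6%, and 13 lower (7.69%), against 5.66%. The count of 18 in EED-/- H1 cells was 10 without WT H1 sample 1 and 11 without EED-/- sample 1. When the 3 lines were averaged and set against WT H1, limma called 42 higher (24.9%), against 13.6%, and 14 lower (8.28%), against 5.36%. The rule asked for a low value with DOX relative to the peak, which the other genes tested did not have to meet. Genes low in undifferentiated cells have more room to rise than to fall, so nothing is read from the difference between these shares.

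The genes highest at day 16 and those highest at day 20 had medians of opposite sign. For the 44 tested genes with a peak at day 16, the median log2 change against WT H1 was -0.62 in EED-/-, -0.51 in SUZ12-/- and -0.81 in EZH2-/-/EZH1-/- H1 cells. For the 125 with a peak at day 20 it was 0.53, 0.91 and 0.80. Over all genes tested the medians were 0.36, 0.22 and 0.19, and they became 0.06, 0.07 and 0.06 when TPM was rescaled by median ratios. In EED-/- H1 cells, 7 of the 35 genes called higher and 11 of the 18 called lower had their peak at day 16, and in SUZ12-/- H1 cells 7 of 46 and 9 of 11, and in EZH2-/-/EZH1-/- H1 cells 3 of 37 and 9 of 13. These are counts of genes chosen with results known, with no test of the difference between the groups. In WT H1 cells all genes with a peak at day 20 had a median TPM of 0.7875, and those with a peak at day 16 a median of 4.815. A gene that is low in WT H1 cells can rise but can hardly fall on this scale. Nothing is therefore read from the opposite signs or from these shares of lower calls.

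**Figure D4:**
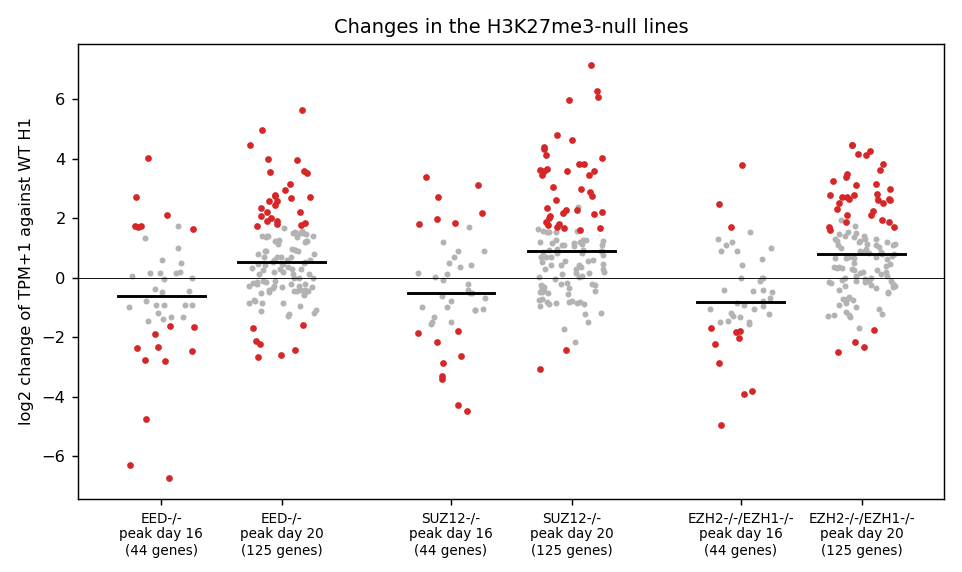
Estimated log2 change of TPM+1 against WT H1 cells for the 44 tested genes with a peak at day 16 and the 125 with a peak at day 20, in each PRC2-null line. Each point is a gene, red where it was called at an adjusted p of 0.01 or less and a fold of 3 or more, and the black bar is the median, which lies below 0 for the genes of day 16 and above 0 for those of day 20.

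Calls were shared between the lines in part. Of the 169 tested genes, 60 (35.5%) were called higher in at least 1 PRC2-null line, against 21.9% of all genes, and 23 (13.6%) in all 3, against 7.82%. At least 1 line had a lower call for 21 (12.4%), against 8.15%, and all 3 had one for 7 (4.14%), against 3.4%. None of the 169 was called higher in 1 of these lines and lower in another, and 88 (52.1%) were called in none, against 70% of all genes. The 3 comparisons share the WT H1 samples, and the limit from the rule given above holds for these shares too, so nothing is read from their difference.

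Among the genes called higher in all 3 lines were streak genes with a part of the time course level. SP5 had a TPM of 0 and 0.11 in WT H1 cells, 11.07 and 23.68 in EED-/-, 8.67 and 7.73 in SUZ12-/- and 12.98 and 14.32 in EZH2-/-/EZH1-/- H1 cells, against 236.67 at day 16. The log2 change was 4.03 ± 0.34 (SE), 3.12 ± 0.34 and 3.80 ± 0.34. WNT3 rose from 0.78 and 0.59 in WT H1 to 12.64 and 8.02 in EED-/-, 9.9 and 10.05 in SUZ12-/- and 11.24 and 6.11 in EZH2-/-/EZH1-/- H1 cells. CDX1 and APLNR also rose in each, with their highest values in SUZ12-/- H1 cells, where CDX1 had 21.91 and 20.94 and APLNR 25.73 and 27.61. HAND1 was listed at 0 in both samples of WT H1, EZH1-/- and EZH2-/- H1 cells and had 3.85 and 6.25 in EED-/-, 139.01 and 146.58 in SUZ12-/- and 31.56 and 13.97 in EZH2-/-/EZH1-/- H1 cells. It was called in all 3 lines.

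WNT5B and TNC had the largest rises in EED-/- H1 cells. WNT5B had a TPM of 0.55 and 0.47 in WT H1 cells and 72.76 and 29.15 in EED-/- H1 cells, both below the peak of 106.4, with a log2 change of 4.97 ± 0.36 and an adjusted p of 2.1e-06. TNC had 3.46 and 4.58 in WT H1 cells, 267.91 and 225.49 in EED-/- H1 cells, 123.8 and 121.81 in SUZ12-/- H1 cells and 170.36 and 53.13 in EZH2-/-/EZH1-/- H1 cells, against 244.98 at the peak. The log2 change of TNC in EED-/- H1 cells was 5.63 ± 0.44, with an adjusted p of 3.5e-06. FOSB, an immediate early transcription factor, had 0.69 and 0.57 in WT H1 and between 8.76 and 25.75 in the 6 PRC2-null samples, and KRT16 had 0.2 and 0.14 and between 2.41 and 7.95, with KRT16 losing its call in EED-/- H1 cells without EED-/- sample 2, at a log2 change of 1.54. HOTAIRM1, a long noncoding RNA, was listed at 0 in WT H1 and had between 11.39 and 29.61 in the PRC2-null samples.

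Other genes were called in all 3 lines, some of them at low levels. FOXC1, a forkhead factor of mesoderm, had a TPM of 0.03 in both WT H1 samples and between 1.82 and 4.04 in the PRC2-null samples, OSR2 0.06 and 0.14 and between 3.97 and 19.58, and KLF4, a Krüppel-like factor, 1.42 and 1.17 and between 7.25 and 13.37. FOXC1 lost its call in EZH2-/-/EZH1-/- H1 cells without sample 1 of that line, at a log2 change of 1.45. TRH had 0.11 and 0.15 in WT H1 and between 4.68 and 19.59 in the 6 PRC2-null samples. AMIGO2, a membrane adhesion protein, had 3.51 and 2.57 and between 22.06 and 79.46. Of the 20 transcription factors, all tested, 10 were called higher in EED-/-, 10 in SUZ12-/- and 10 in EZH2-/-/EZH1-/- H1 cells, but not the same 10: CDX1, FOSB, FOXC1, HAND1, KLF4, OSR2 and SP5 were the 7 called in all 3. Of 13 tested signalling genes, 5, 6 and 3 were called higher in the same order. Over all genes tested the shares called higher were 16.2%, 14.5% and 11.6%, and since both groups were put together with results known, nothing is read from the difference.

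Several of the best known streak genes stayed far below the peak in the PRC2-null lines and were not called. MIXL1 had a TPM of 1.27 and 0.74 in WT H1 and between 1.6 and 3.53 in the 6 PRC2-null samples, against 302.7 at the peak, and its log2 change in SUZ12-/- H1 cells was 0.89 ± 0.30 with an adjusted p of 0.033. MESP1, MESP2, FGF4, FGF8 and LEFTY1 were not called in any of these lines. MSGN1 was listed at 0 in both samples of WT H1, EZH1-/-, EZH2-/- and EED-/- H1 cells and had 1.14 and 1.49 in SUZ12-/- and 0.94 and 0.8 in EZH2-/-/EZH1-/- H1 cells. T had 0.37 and 0 in WT H1 cells, 3.74 and 1.56 in EED-/-, 3.39 and 2.61 in SUZ12-/- and 3.95 and 4.13 in EZH2-/-/EZH1-/- H1 cells. It was called in SUZ12-/- and EZH2-/-/EZH1-/- H1 cells and missed the fold of 3 in EED-/- H1 cells, where the log2 change was 1.57 ± 0.32 with an adjusted p of 0.0018. Without WT H1 sample 2 or SUZ12-/- sample 1, the call of T in SUZ12-/- H1 cells was lost, at an adjusted p of 0.0149 and 0.0137.

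Some signalling genes were called in a single line. NODAL had a TPM of 12.31 and 8.16 in WT H1 and 34.2 and 38.13 in EED-/- H1 cells, with a log2 change of 1.75 ± 0.40 and an adjusted p of 0.004, and LEFTY2 had 16.45 and 7.4 and 100.68 and 24.98, with 2.09 ± 0.56 and 0.0098. Both calls were lost without either WT H1 sample and under rescaling by median ratios, that of NODAL also without either EED-/- sample and that of LEFTY2 without EED-/- sample 1 or any 1 sample of the EZH1-/-, EZH2-/- or SUZ12-/- lines. One EZH2-/- sample had 56.82 for NODAL, above both EED-/- samples. CFC1 had 0 and 0.11 in WT H1 and 13.86 and 13.95 in SUZ12-/- H1 cells, with a log2 change of 3.82 ± 0.52, and FGF17 rose in the same line to 3.78 and 2.85 from 0.06 and 0.13. LHX1 was called in EED-/- H1 cells, at 28.59 and 26.51 against 0.22 and 0.35, and in EZH2-/-/EZH1-/- H1 cells at 15.97 and 3.55, the latter not without WT H1 sample 1 (adjusted p 0.0104).

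**Figure D5:**
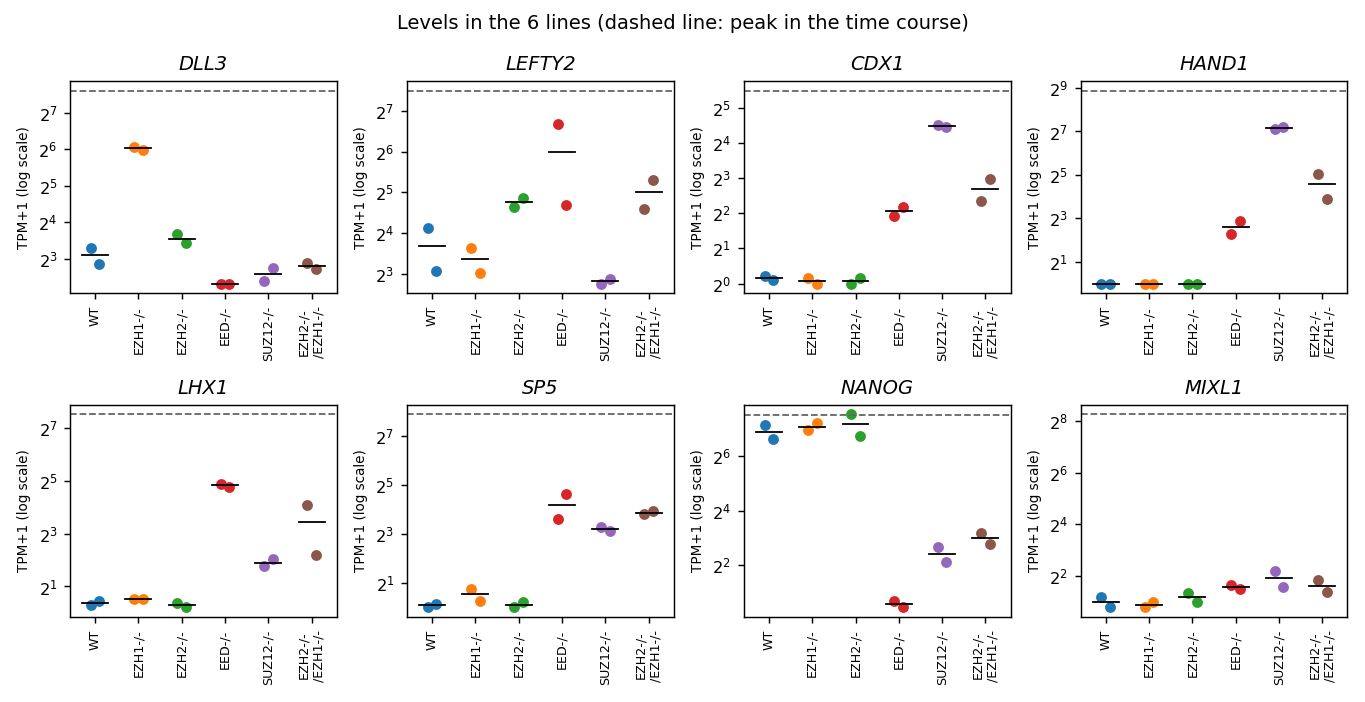
TPM plus 1 on a log scale in each of the 2 samples of the 6 lines for 8 of the transient genes, with the mean of TPM plus 1 as a black bar and the peak of the time course as a dashed line. HAND1, CDX1 and SP5 were near 0 in the 3 lines that keep H3K27me3 and were called higher in all 3 PRC2-null lines. LHX1 was also near 0 in the former but was not called in SUZ12-/- H1 cells. NANOG went the other way, DLL3 was highest in EZH1-/- H1 cells, and MIXL1 stayed far below its peak in all lines.

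The genes called lower in the PRC2-null lines included NANOG and the noncoding RP11-267L5.1. NANOG had a TPM of 140.42 and 97.47 in WT H1 cells, between 107.22 and 185.35 in EZH1-/- and EZH2-/- H1 cells, and 0.6 and 0.37 in EED-/-, 5.31 and 3.36 in SUZ12-/- and 8.1 and 5.8 in EZH2-/-/EZH1-/- H1 cells. In EED-/- H1 cells the log2 change was -6.32 ± 0.32, with an adjusted p of 2.5e-07. The pseudogene NANOGP8, whose reads may be split with NANOG, fell in all 3 lines, and so did RP11-267L5.1, from 253.91 and 262.02 to 1.29 and 1.56 in EED-/- H1 cells. GAL had 176.0 and 215.16 in WT H1 and was called lower in EED-/- at 45.31 and 25.95 and in SUZ12-/- H1 cells at 32.01 and 28.33, and TUBB2B fell in the same lines, although not in EED-/- H1 cells without WT H1 sample 1 or EED-/- sample 1 (adjusted p 0.0103 and 0.0112). TBX6 had 2.56 and 2.47 in WT H1 and 0.16 and 0.15 in EED-/- H1 cells, with a log2 change of -1.61 ± 0.34, a call lost without either sample of either line (adjusted p of 0.0138 to 0.0188). RYR2, a calcium release channel of the heart, was called lower in EED-/- and EZH2-/-/EZH1-/- H1 cells. The first call was lost without WT H1 sample 1 or either EED-/- sample, and the second without either WT H1 sample or EZH2-/-/EZH1-/- sample 2 (adjusted p of 0.011 to 0.0331 in all).

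Over the whole streak list, 27 of 29 genes were tested. In EED-/- H1 cells 12 were called higher and 2 lower, and the counts were 10 and 1 in SUZ12-/- and 11 and 1 in the double knockout. The shares over all genes, given above, were 16.2% and 6.09%, 14.5% and 5.21%, and 11.6% and 5.66%. The list was put together with earlier results known, so nothing is read from the difference. The median log2 change of the list was 1.01, 1.08 and 1.10, against the medians of all genes given above. EOMES, CER1, EVX1 and PDGFRA, which did not meet the rule, were called higher in all 3 lines, and FOXH1, the partner of SMADs in NODAL signalling, was called lower in all 3.

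The single knockouts of EZH1 and EZH2 gave few calls among the transient genes. In EZH1-/- H1 cells 1 of 169 genes (0.592%) was called higher, against 0.0576% of all genes, and 0 lower, against 0.0419%, while by limma 28 and 5 had an unadjusted p under 0.05. The gene was DLL3 (chr19:39498895-39508481), with a TPM of 66.18 and 62.77 against 8.9 and 6.29 in WT H1 cells and between 4.0 and 11.71 in the other lines. Its log2 change was 2.95 ± 0.26 with an adjusted p of 0.0018, and the call was lost without either WT H1 sample or either EZH1-/- sample, at an adjusted p between 0.0286 and 0.0561 and a log2 change of at least 2.72. In EZH2-/- H1 cells limma called 0 of 169 genes higher and 0 lower, as for all genes (0% and 0%), and 18 and 6 had an unadjusted p under 0.05. The 44 genes with a peak at day 16 had a median log2 change of 0.26 in EZH1-/- and 0.27 in EZH2-/- H1 cells.

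The PRC2-null lines differed from one another at some of these genes. Between SUZ12-/- and EED-/- H1 cells, 15 genes (8.88%) were called higher in SUZ12-/-, against 3.54% of all genes, and 6 (3.55%) lower, against 2.58%. Without SUZ12-/- sample 1 the counts were 7 and 0, without SUZ12-/- sample 2 they were 7 and 1, and without EED-/- sample 1 they were 8 and 3. Between EZH2-/-/EZH1-/- and SUZ12-/- H1 cells 3 genes (1.78%) were called higher in the double knockout, against 1.14%, and 13 (7.69%) lower, against 3.32%, falling to 0 and 5 without SUZ12-/- sample 1 and 0 and 4 without SUZ12-/- sample 2. A fit of the 4 samples of those 2 lines alone called 0 and 0. Between EZH2-/-/EZH1-/- and EED-/- H1 cells limma called 0 higher, against 0.0314%, and 0 lower, against 0.0576%, with 34 and 16 at an unadjusted p under 0.05, and 4 and 4 were called without EZH2-/-/EZH1-/- sample 1 and 0 and 1 without EED-/- sample 2. The median absolute log2 difference between the samples of a line, over the tested transient genes, was 0.198 in SUZ12-/- and 0.555 in EZH2-/-/EZH1-/- H1 cells.

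The files as a whole showed the following. Between 19117 and 23012 genes per sample had a TPM above 0, and the read depth behind a TPM is unknown, so no counting interval is given. EED had a TPM of 108.54 with DOX and between 12.64 and 31.56 after its withdrawal. In EED-/- H1 cells it had 14.25 and 22.36 against 17.3 and 21.96 in WT H1 cells, and SUZ12 had 22.94 and 20.76 in SUZ12-/- H1 cells against 25.21 and 27.89. EZH1 and EZH2 had 9.37 and 6.78 and 31.28 and 20.03 in the double knockout, against 13.71 and 14.29 and 54.55 and 58.89 in WT H1 cells. Because the deletions took out a domain, the level of the whole gene is no check of the labels. PRR23D1 and PRR23D2 had identical values in all samples, and the values of near-identical copies such as LEFTY1 and LEFTY2, GSTA1 and its paralogs, and NANOG and NANOGP8 are uncertain as to how reads were shared.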

How the data were processed

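RNA-seq was deposited for 19 samples of H1 hESCs. The authors prepared TruSeq libraries, sequenced them on an Illumina NextSeq instrument and quantified reads against the GRCh38 mRNA reference with RSEM and Bowtie2. The submitters' processing notes name RSEM and Bowtie with the builds GRCh38, hg38 and hg19. The deposited unit was TPM per gene, a level whose total is the same in all samples. The study's test for differential expression, edgeR, needs counts, so it was not run here, and limma on log2(TPM+1) was used instead, a scale that understates changes of low genes.

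The genes and the 15 gene lists were chosen with earlier results of these data known. Genes were joined by Ensembl identifier, since 33 symbols differed between the 2 sets of files. For the 12 samples of the 6 lines, a gene was kept where 2 or more samples reached a TPM of 1, which left 19100. limma 3.58.1 in R 4.3.3 was fitted with a mean per line, 6 residual degrees of freedom and the trend and robust options of eBayes. The 9 contrasts were adjusted by Benjamini-Hochberg over all genes tested and called at 0.01 or less with a fold of 3 or more. The script was tested on simulated data in which only genes well above the floor in WT H1 cells were changed. That test does not cover genes that are low in WT H1 cells. Samples with the same number in different lines did not deviate together: over 15 pairs of lines the correlation of deviations ran from -0.121 to 0.218, so the numbers do not pair the samples.

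Genes named are those in a list, the 12 with the largest ratio, the 8 with the highest TPM, the 4 largest rises and the 4 largest falls in each PRC2-null line, those called in EZH1-/- or EZH2-/- H1 cells and the 3 nearest each side of the threshold. COL13A1, CPT1A, FOXC1, GPR83, GRP, KLF4, LAMA2, MMP9, OSR2, PAX8, BDKRB2, TACR1, THBS2, TRH and AMIGO2, and the genes named only for sharing a copy, were chosen after their values were seen, as were the 5 functional groups, which hold 67 genes. Coordinates are from GENCODE release 44. Alternatives were a pseudocount of 0.1, no filter, rescaling by median ratios, a replicate block, fits of only the lines compared, leaving out each sample, and an adjusted p of 0.05 with no fold. Figures were drawn with matplotlib 3.10.9 in Python 3.11.15.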

Additional observations from a re-analysis of the deposited data

Results flagged for a closer look

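Named genes for which limma called a difference between PRC2-null lines are listed here. Their levels differed between lines that share the loss of H3K27me3. The deleted gene and other differences between the lines cannot be told apart. Each value is a log2 difference of TPM+1, and each passed an adjusted p of 0.01 and a fold of 3. No cause was tested.

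SUZ12-/- H1 cells were higher than EED-/- H1 cells at 11 of these genes. The largest differences were 5.07 for FXYD3, 4.78 for MFAP4 and 4.60 for HAND1. CFC1, with 13.86 and 13.95 TPM against 0.16 and 0.23, differed by 3.64, and CDX1 by 2.43. The other values were 3.29 for GSTA1, 3.20 for LAMA2, 1.84 for OSR2, 1.76 for BDKRB2, 1.82 for NANOG and 1.68 for the noncoding LINC01356. The opposite direction was found at LHX1, with a log2 difference of -2.94, and at LEFTY2, with -2.86, both of which were higher in EED-/- H1 cells. Of these 13 differences, 6 kept the call when any 1 sample was left out, those at FXYD3, MFAP4, HAND1, CDX1, GSTA1 and LAMA2. The other 7, at CFC1, OSR2, BDKRB2, NANOG, LINC01356, LHX1 and LEFTY2, each lost it without SUZ12-/- sample 1, without SUZ12-/- sample 2 and without EED-/- sample 1.

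EZH2-/-/EZH1-/- H1 cells were lower than SUZ12-/- H1 cells at many of the same genes. The log2 differences were -5.16 for MFAP4, -4.10 for FXYD3, -3.73 for LAMA2, -2.82 for CFC1, -2.70 for GSTA1, -2.70 for HAND1, -2.49 for BDKRB2, -1.82 for CDX1 and -1.65 for PAX8. TUBB2B was higher in the double knockout by 1.59. The calls at MFAP4, FXYD3, LAMA2 and BDKRB2 held when any 1 sample was left out, and each of the other 6 was lost without SUZ12-/- sample 1 and also without SUZ12-/- sample 2. A fit of the 4 samples of these 2 lines alone called none of these differences, and 0 of all the transient genes.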

How the results depend on the processing

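The deposited TPM give no read depth, each time point is 1 sample and each line 2, so precision rests on the spread shared by the 12 samples of the lines. Calls for single genes were followed for a set that also holds genes not named above, such as PAX2, CNR1 and RP11-867G2.6. Of its 156 calls, 106 held under every alternative, and of 2808 recomputed values 189 lost the call and 0 changed sign. Leaving out 1 sample accounted for 139 of the lost calls, and fits of only the compared lines for 27.

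The rule gave 187 genes, and 384 with a ratio of 2, 100 with a ratio of 4 and 55 with day 16 alone as the peak. Rescaling the time course by median ratios gave 186 genes, of which 176 were among the 187, so membership near the threshold depends on the scaling. At day 12 a bar of 2 times DOX gave 90 genes. The counts below are of transient genes, given as higher and lower. With a replicate block they were 36 and 17 in EED-/-, 47 and 11 in SUZ12-/- and 37 and 13 in EZH2-/-/EZH1-/- H1 cells against WT H1, and the replicate block gave 1 higher in the double knockout than in EED-/- and 5 higher than in SUZ12-/- H1 cells. The samples share only a number. The fold cut, when dropped at an adjusted p of 0.05, raised the counts to 57 and 33 in EED-/-, 65 and 30 in EZH2-/-/EZH1-/- and 72 and 35 for the PRC2-null average, to 27 lower in SUZ12-/-, 5 higher in EZH1-/-, 41 and 17 for SUZ12-/- against EED-/-, 16 and 25 for the double knockout against SUZ12-/-, and 3 higher for it against EED-/- H1 cells. With a pseudocount of 0.1 the double knockout had 1 higher and 8 lower against SUZ12-/- and 1 higher against EED-/-, as rescaling by median ratios also gave (1). Without the filter 3 were lower in SUZ12-/- than in EED-/-. Fits of only the compared lines gave 5 lower in EZH2-/-/EZH1-/-, 8 higher in EZH1-/-, 3 lower in SUZ12-/- than in EED-/- and 0 and 0 for the double knockout against SUZ12-/- H1 cells. The cause was not tested, except that fewer samples enter the latter fits.

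Leaving out each sample in turn gave 29 to 38 higher and 10 to 18 lower in EED-/-, 38 to 47 and 11 to 13 in SUZ12-/-, 28 to 41 and 10 to 19 in EZH2-/-/EZH1-/-, 33 to 43 and 11 to 16 for their average, and 0 to 3 higher in EZH1-/- H1 cells. Between lines it gave 7 to 18 and 0 to 6 for SUZ12-/- against EED-/-, 0 to 4 and 0 to 4 for the double knockout against EED-/-, and 0 to 4 and 4 to 19 for it against SUZ12-/- H1 cells.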
